A study of Homo sapiens with 10 samples.

Results

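Claudins are the membrane proteins that form the strands of tight junctions, the seals between neighbouring epithelial cells. Strands that hold sealing claudins limit the passage of ions between cells, and strands that hold channel-forming claudins let chosen ions pass. The proteins bind scaffolds such as ZO-1 (gene TJP1) on the inner side of the membrane. Human embryonic stem cells grow as a polarised epithelial sheet, and a neural or mesenchymal fate is known to involve a loss or remodelling of such junctions. The 10 claudin genes described here are CLDN1, CLDN3, CLDN4, CLDN5, CLDN6, CLDN7, CLDN9, CLDN10, CLDN11 and CLDN12. They were taken by name from the 22848 gene symbols found in all 4 deposited tables. All 10 had 1 row per table, were not merged with another symbol, were tested by the authors in every table and reached 1 FPKM (a level per transcript length and per sequenced fragment) in at least 1 cell type of each table. A further 14 genes with claudin names are described separately.

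The cells were WA09, an established line of human embryonic stem cells (hESC), and 4 types derived from it, with 2 poly-A libraries each and 10 libraries in all. The hESC were grown for 4 days with FGF (8 ng/mL), IGF-I (200 ng/mL), heregulin (10 ng/mL) and activin A (10 ng/mL). Definitive endoderm (DE) had 4 days of FGF and a higher dose of activin A (100 ng/mL). It also had Wnt-3a (25 ng/mL) on the first day, and neither IGF-I nor heregulin. Splanchnic mesoderm (MESO) had 4 days of all the hESC factors plus Wnt-3a (25 ng/mL) and BMP-4 (100 ng/mL). Neural progenitor cells (NPC) had 6 days of IGF-I and heregulin with SB431542, an inhibitor of activin receptors, and LDN (500 nM), an inhibitor of BMP receptors, without FGF or activin A. Pre-neural crest cells (NCSC) had 6 days of FGF, IGF-I and heregulin with SB431542 and the GSK3 inhibitor BIO, without activin A. NPC and NCSC were seeded at 90000 cells per square centimetre and the others at 50000, so density and days in culture cannot be told apart from the treatment in these 2 types.

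The authors deposited 1 FPKM value per cell type in each table, with their own test statistic, p-value and q-value for that derivative against hESC. No spread between libraries can therefore be given, the read depth is unknown, and levels printed here are the authors' values. Which of the 2 libraries of a type entered each value is not stated. Rose, fell and changed refer to an authors' q below 0.05, and each log2 change is the derivative's log2(FPKM + 1) minus that of hESC in the same table, a scale on which low genes appear to change less. The labelled types were checked on marker lists: 4 of 6 endoderm markers rose in DE, 6 of 6 mesoderm markers in MESO and 4 of 5 neural markers in NPC. Of 5 hESC markers 5 fell in MESO, 4 fell and 1 (SOX2) rose in NPC, and 3 fell in NCSC. In DE 0 of the 5 fell, where only 0.0203% of all loci tested were called lower. Their median log2 change was -1.95 in DE, -3.38 in MESO, -4.42 in NPC and -3.62 in NCSC. POU5F1 was at 29.7 FPKM in DE, 19.9 in MESO, 0.645 in NPC and 17.1 in NCSC. The part of remaining hESC in the claudin levels was not tested. Of 7 neural crest markers only PAX3, MSX1 and SNAI2 rose in NCSC. PAX7 (0.0512 FPKM), TFAP2A (0.0463) and ZIC1 (0.116) were close to 0 there, so these markers support the label in part at most. The list did not set NCSC apart: 3 of its markers rose in NPC, and 4 rose and 1 fell in MESO. Its summed level was 34.9 FPKM in NCSC, 8.77 in NPC and 170 in MESO. In bulk RNA, fewer cells of a type and less RNA per cell cannot be told apart.

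The members share a signature in the first extracellular segment of the protein, which is coded by an in-frame run of GGN, CTN and TGG followed, after 2 more codons, by a cysteine codon. The run was present in a transcript of all 10 members. The stretches below are shown to let the members be compared at the part that defines the family. They are 36 bases of the coding strand, 5′ to 3′, from GENCODE release 29 transcripts, with the signature codons in capitals.
CLDN1: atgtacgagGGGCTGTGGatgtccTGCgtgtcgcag
CLDN3: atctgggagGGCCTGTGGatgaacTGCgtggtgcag
CLDN4: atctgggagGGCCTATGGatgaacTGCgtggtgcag
CLDN5: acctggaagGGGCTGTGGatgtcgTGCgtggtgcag
CLDN6: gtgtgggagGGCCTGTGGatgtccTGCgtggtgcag
CLDN7: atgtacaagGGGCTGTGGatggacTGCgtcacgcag
CLDN9: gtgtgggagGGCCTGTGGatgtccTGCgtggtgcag
CLDN10: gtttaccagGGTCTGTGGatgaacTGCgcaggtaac
CLDN11: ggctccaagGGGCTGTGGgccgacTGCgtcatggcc
CLDN12: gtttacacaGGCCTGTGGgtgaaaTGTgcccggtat
CLDN6 and CLDN9 are identical over this stretch, and the other 8 members each have a sequence of their own. For CLDN10 the stretch is that of a transcript of 678 coding bases, and a transcript of 684 coding bases has no such run.

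Some members are close copies, which bears on how reads are assigned. The coding sequences of CLDN6 and CLDN9 were 81.7% identical over aligned bases and shared an unbroken run of 74 bases, and those of CLDN3 and CLDN4 were 79.4% identical with a run of 71 bases. CLDN6 shared runs of 48 bases with both CLDN3 and CLDN4. No other pair of the 45 shared a run of 40 bases or more. CLDN3, CLDN4, CLDN5, CLDN6, CLDN9 and CLDN12 have a single coding exon in their longest coding transcript. Neither the read length nor the treatment of reads with several matches is given in the sources used here, so the split within these pairs is uncertain. The same pairs are neighbours: in the hg19 coordinates of the tables, CLDN3 and CLDN4 lie 58459 bases apart on chromosome 7 (58392 in the MESO table), and CLDN6 and CLDN9 lie 205 bases apart on chromosome 16 in the DE table. In the other 3 tables CLDN6 and CLDN9 were given 1 common locus, 3061192 to 3068950. In GENCODE, CLDN6 is on the minus strand and CLDN9 on the plus strand.

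In hESC the family was dominated by CLDN6, a claudin of embryonic epithelia. Its hESC level was 481 FPKM in the DE table, 490 in the MESO table, 541 in the NPC table and 506 in the NCSC table. FPKM is per length, so members can be set side by side on this scale. CLDN6 held 77.4% to 79.5% of the summed FPKM of the 10 members in hESC. CLDN7, which binds the adhesion protein EPCAM, was next at 56.6 to 62.8 FPKM, and CLDN12, a widely expressed claudin, followed at 25.1 to 31.8. Then came CLDN3 (11.4 to 12.7), CLDN4 (9.91 to 14.5), CLDN10 (8.69 to 10.1) and CLDN11 (7.37 to 13.6). The ranges of CLDN4 and CLDN11 over the tables overlapped those of all the other 3 in this set. Within every table CLDN3 and CLDN4 lay above CLDN10, and CLDN11 lay below CLDN4. CLDN4 and CLDN10 were nearly equal in the NCSC table (9.91 and 9.89). The other pairs changed order between tables, so their order is not settled. CLDN9 (2.64 to 2.93), CLDN1 (1.60 to 2.06) and CLDN5 (1.15 to 1.32) were lowest. The series holds 2 hESC libraries, and the labels do not say which of them entered each table. These ranges show how far the tables differ, and a spread between libraries cannot be told apart from that.

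The hESC columns agreed closely for most members. The highest hESC value was 1.11 to 1.29 times the lowest for 8 of the 10, beside a median of 1.23 over 11653 single-symbol genes. The exceptions were CLDN4 (1.46 times) and CLDN11 (1.85 times), and in both the value of the DE table was the high one.

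**Figure D1:**
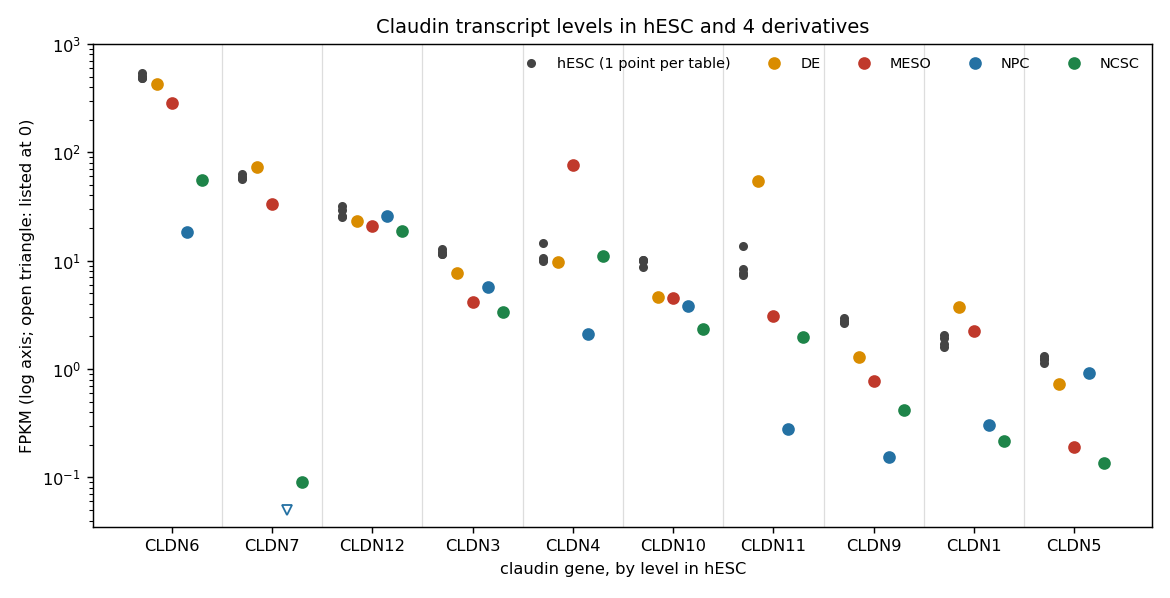
FPKM of the 10 claudins (log axis) in hESC (4 points per gene, 1 per table) and in DE, MESO, NPC and NCSC (1 point each, the authors' value). CLDN6 stands above 280 FPKM in hESC, DE and MESO and at 18.2 in NPC and 55.1 in NCSC, and CLDN7 is listed at 0 in NPC (open triangle).

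The summed FPKM of the 10 members was 622 in hESC and 608 in DE in the DE table, and 616 and 428 in the MESO table. It was 683 in hESC and 57.4 in NPC in the NPC table, and 639 in hESC and 93.4 in NCSC in the table of that type. The sum in NPC was thus the lowest of the 5 types and that in NCSC the next. CLDN6 still led in DE (70.6% of the sum), MESO (66.2%) and NCSC (59.0%). In NPC the leading member was CLDN12, with 45.1% of the sum, and CLDN6 held 31.8%. The second member was CLDN7 in hESC and DE, CLDN4 in MESO (17.7%) and CLDN12 in NCSC (20.1%). These sums have no test, and nothing in the labels says that the 4 tables were put on a common scale. They count CLDN7 at 0 FPKM in NPC and 0.0915 in NCSC, levels that are given below as uncertain. The sums, shares and order of members in these 2 types depend on them.

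**Figure D2:**
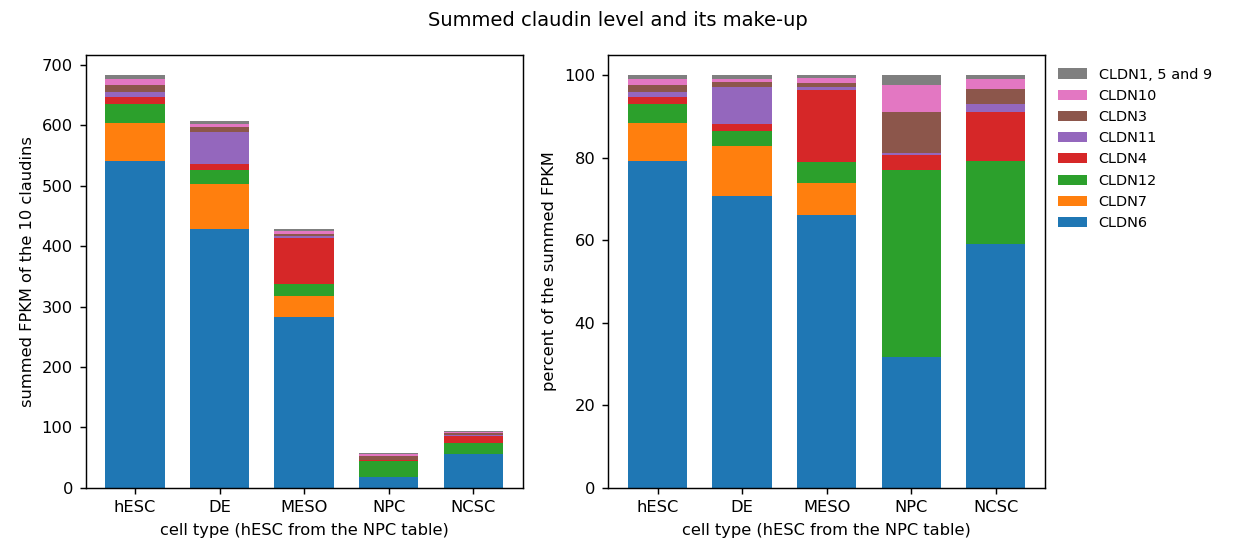
Summed FPKM of the 10 claudins (left) and each member's percent of it (right) in hESC, taken from the NPC table, and in the 4 derivatives. The sum is 683 FPKM in hESC, 57.4 in NPC and 93.4 in NCSC, and CLDN12 makes up the largest part in NPC. CLDN7 is counted at 0 in NPC and 0.0915 in NCSC, levels given as uncertain.

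In DE none of the 10 claudins changed. Only 0.426% of the 14789 loci tested in that table were called (0.406% higher and 0.0203% lower), so a count of 0 of 10 says little about the members. With the authors' unadjusted p below 0.05 there was 1 member, CLDN11, and with Benjamini-Hochberg adjusted normal p-values that were derived from the authors' statistic there was none. CLDN6 was 481 FPKM in hESC and 429 in DE, CLDN7 was 59.0 and 73.7, and CLDN12 was 25.1 and 23.3. These 3 members, the highest in hESC, stayed within a log2 change of -0.16 to 0.32. The median log2 change of the members was -0.24, beside 0.04 over all loci tested.

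CLDN11, known from the myelin of oligodendrocytes and from the barrier of the testis, had the largest difference in DE. The locus is 170136652 to 170152479 on chromosome 3 (hg19). It was listed at 13.6 FPKM in hESC and 53.9 in DE, a log2 change of 1.90 (q = 0.239 in the authors' deposited table). With hESC taken as the median of the other 3 tables the log2 change was 2.65. CLDN11 was the third claudin by level in DE and held 8.86% of the sum. In MESO (3.07 FPKM), NPC (0.280) and NCSC (1.96) it lay below hESC. The summed level of 4 oligodendrocyte markers was 41.2 FPKM in hESC and 17.5 in DE, OLIG2 was listed at 0 in DE, and no marker of the list passed there. The same sum was 29.7 in hESC and 9.14 in MESO, 34.7 and 43.1 for NPC, and 32.1 and 42.4 for NCSC. The sum thus did not follow CLDN11 over the tables. The part of such cells in the CLDN11 level was not tested. CLDN1, a sealing claudin of the epidermis, was 1.60 in hESC and 3.74 in DE (the authors' deposited table gives q = 0.999).

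In MESO a single claudin changed: CLDN4, a sealing claudin of many epithelia, rose. Its locus in this table is 73242993 to 73256855 on chromosome 7 (hg19) and overlaps WBSCR27, which was below 2 FPKM and did not pass. CLDN4 was listed at 10.1 FPKM in hESC and 75.7 in MESO, 7.46 times as much, with a log2 change of 2.78 (statistic 4.01, q = 0.000868 in the authors' deposited table). The MESO level lay above every hESC column (9.91 to 14.5) and above the other 3 derivatives (2.11 to 10.99). Of the 14796 loci tested for MESO, 14.4% were called (9.05% higher and 5.37% lower), so 1 of 10 is near that background. No member fell, although 8 of 10 were lower. The median log2 change was -0.80, beside 0.06 over all loci tested. CLDN6 went from 490 FPKM to 284 without passing (the authors' deposited table gives q = 0.226), and CLDN3 from 11.6 to 4.14 (the authors' deposited table gives q = 0.153). CLDN3 and CLDN4, close copies and neighbours, thus lay on opposite sides of hESC in MESO.

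Markers of another tissue moved in the same table as CLDN4. All 7 trophoblast and amnion markers of a list rose in MESO, and their summed level was 4.02 FPKM in hESC and 606 in MESO, with CGA at 95.3 and VTCN1 at 44.9. Of this list ISL1 is also a mesoderm marker here and TFAP2A also a neural crest marker. In DE the same sum was 8.48, in NPC 0.650 and in NCSC 0.685. Of 6 surface ectoderm markers 2 rose in MESO, KRT18 (80.0 to 712 FPKM) and TFAP2C (16.4 to 56.3). The other 4 were also higher in MESO but were not called. TP63 was 0.00475 in hESC and 1.81 in MESO, KRT14 was 0.0225 and 2.31, GRHL3 was 2.02 and 6.68, and KRT5 was listed at 0 and at 0.0364. The part of such cells in the CLDN4 result was not tested. CLDN5, the main claudin of blood vessel endothelium, had 1.24 FPKM in hESC against 0.189 in MESO (the authors' deposited table gives q = 0.147). Of 5 endothelial markers 2 rose in MESO, the receptors KDR (55.9 in MESO) and TEK (37.2). The other 3 were below 1 FPKM there, with PECAM1 at 0.0701.

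In NPC all 10 claudins were lower than in hESC (all but CLDN12 after quantile normalization) and 5 fell: CLDN6, CLDN11, CLDN4, CLDN1 and CLDN3. Of the 14863 loci tested for NPC, 36.8% were called (12.0% higher and 24.8% lower), a share at which 2 or 3 of 10 genes would be called lower. The median log2 change of the members was -1.50, beside -0.25 over all loci tested. CLDN6 fell from 541 FPKM to 18.2, a log2 change of -4.82 (statistic -11.2, q = 0.000323 in the authors' deposited table), 29.7 times lower. CLDN11 fell from 8.35 to 0.280, 29.9 times lower (q = 0.000323 in the authors' deposited table). CLDN4 fell from 10.6 to 2.11 and CLDN1 from 2.06 to 0.308. The smallest of the 5 was CLDN3, which fell from 12.0 to 5.68 (q = 0.0261 in the authors' deposited table). With normal p-values from the statistic its adjusted p was 0.172, so that call was lost and 4 remained. CLDN12 was 31.8 in hESC and 25.9 in NPC, and CLDN5 1.32 and 0.921, without passing. CLDN10, which forms channels for cations or anions depending on the transcript, was 10.1 and 3.78 (q = 0.261 in the authors' deposited table). Its locus overlaps DZIP1, which rose in NPC (5.68 to 15.1 FPKM).

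In NCSC 9 of 10 claudins were lower and 5 fell: CLDN6, CLDN11, CLDN3, CLDN1 and CLDN5. Of the 14901 loci tested for NCSC, 29.9% were called (10.2% higher and 19.7% lower), a share at which about 2 of 10 genes would be called lower. The median log2 change was -1.46, beside -0.21 over all loci tested. CLDN6 fell from 506 FPKM to 55.1, 9.19 times lower, with a log2 change of -3.18 (statistic -7.89, q = 0.000455 in the authors' deposited table). CLDN11 fell from 7.74 to 1.96 and CLDN3 from 11.4 to 3.36. CLDN1 fell from 1.91 to 0.215 and CLDN5 from 1.25 to 0.135. CLDN4, which fell in NPC, was 9.91 in hESC and 10.99 in NCSC (q = 0.797 in the authors' deposited table). CLDN12 was 29.5 and 18.8 (q = 0.0897 in the authors' deposited table) and CLDN10 9.89 and 2.35 (q = 0.256 in the authors' deposited table). DZIP1, which overlaps the CLDN10 locus, rose in NCSC as well (6.19 to 15.2 FPKM). NPC and NCSC were each compared with hESC and were not tested against each other.

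**Figure D3:**
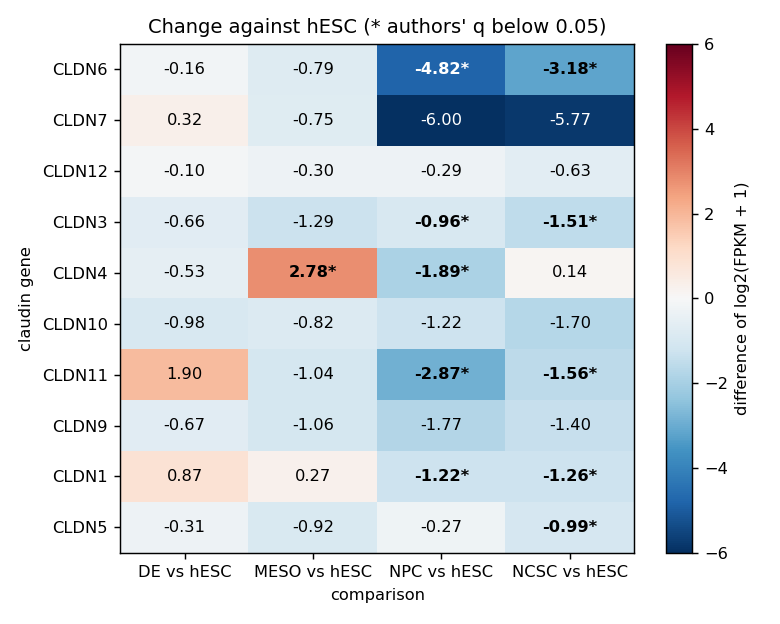
Difference of log2(FPKM + 1) between each derivative and hESC of the same table, for the 10 claudins ordered by level in hESC. Bold values with an asterisk have an authors' q below 0.05: none in DE, CLDN4 in MESO (2.78), and 5 each in NPC and NCSC, among them CLDN6 (-4.82 and -3.18).

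The largest differences among the 10 members, those of CLDN7 in NPC and NCSC, did not pass. CLDN7 was listed at 62.8 FPKM in hESC and at 0 in NPC (q = 0.156 in the authors' deposited table), where the authors' statistic was not a number. In NCSC it was 58.5 and 0.0915, a ratio of 639, with a statistic of only -1.15 (q = 0.200 in the authors' deposited table). The log2 ratio divided by the statistic was 8.13 for CLDN7 in NCSC, beside a median of 0.43 and a 95th percentile of 1.04 over the loci of that table that averaged 20 FPKM or more. For CLDN6 in NCSC it was 0.41. The CLDN7 locus of the tables spans 7146498 to 7166632 on chromosome 17 (hg19) in NPC and NCSC and also holds CTDNEP1 and ELP5. In NCSC these 2 neighbours were near their hESC levels, with CTDNEP1 at 28.0 and 28.96 FPKM and ELP5 at 28.2 and 27.1. The level of CLDN7 in NPC and NCSC is therefore given as uncertain. In DE (73.7 FPKM) and MESO (33.4) CLDN7 did not pass either. Its quotient was 0.98 in DE and 1.39 in MESO, beside 95th percentiles of 1.61 and 1.28, so its MESO level is uncertain too. CLDN10 had 1.67 in DE, 1.39 in MESO, 1.42 in NPC and 1.72 in NCSC. These also lay above the 95th percentiles, which were 0.94 in NPC and 1.04 in NCSC. CLDN10 averaged below 20 FPKM, and no percentile was computed for such genes.

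CLDN9, known from the inner ear, was low throughout. It was 2.93 FPKM in hESC and 0.153 in NPC, 2.75 and 0.420 in NCSC, and 2.73 and 0.782 in MESO, and passed in none. Its log2 ratio divided by its statistic was 2.53 in NPC, 2.75 in NCSC, 5.15 in MESO and 1.01 in DE. The tables differ in this quotient: the median over loci averaging 20 FPKM or more was 0.43 in NPC and NCSC, 0.61 in MESO and 0.71 in DE. CLDN9 lies far below that level, and no median was computed for genes as low. It shared a locus with CLDN6 in NPC, NCSC and MESO but not in DE. The part of the shared locus in these quotients was not tested. CLDN9 lay below hESC in all 4 derivatives. Its near-identical stretches with CLDN6, whose level is far higher, leave its own level uncertain.

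**Figure D4:**
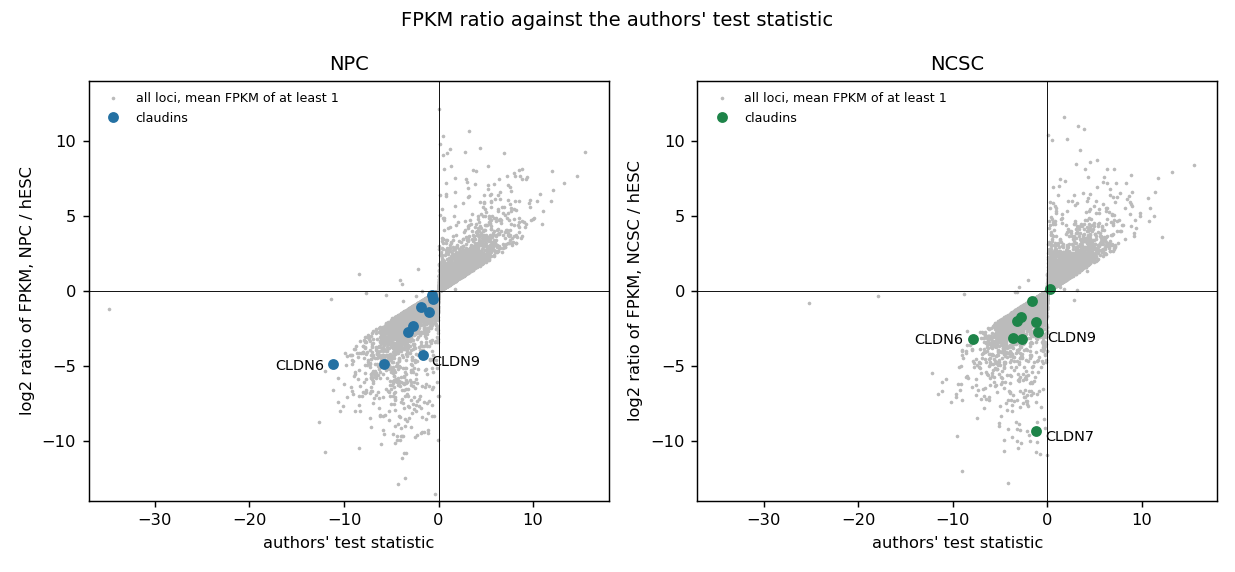
Log2 ratio of FPKM against the authors' test statistic for NPC (left) and NCSC (right), with all tested loci of at least 1 FPKM on average in grey and the claudins in colour. CLDN6 has a log2 ratio of -4.89 at a statistic of -11.2 in NPC, CLDN9 one of -4.26 at -1.69 and CLDN7 in NCSC one of -9.32 at -1.15, and CLDN7 in NPC has no statistic and is not drawn.

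Promoter sequences are shown for CLDN6, the called member with the largest fall in log2(FPKM + 1), and for CLDN4, the one member that rose. Windows of 250 bases before the start were taken from RefSeq (GRCh38.p14) for 8 of the 10 members, 11 windows in all, since CLDN7, CLDN10 and CLDN11 have more than 1. Those of CLDN6 and CLDN4 are shown 5′ to 3′ on the coding strand, with each CG pair in capitals. The CLDN6 window is chr16:3018184-3018433 (minus strand) and the CLDN4 window chr7:73830746-73830995 (plus strand).
CLDN6: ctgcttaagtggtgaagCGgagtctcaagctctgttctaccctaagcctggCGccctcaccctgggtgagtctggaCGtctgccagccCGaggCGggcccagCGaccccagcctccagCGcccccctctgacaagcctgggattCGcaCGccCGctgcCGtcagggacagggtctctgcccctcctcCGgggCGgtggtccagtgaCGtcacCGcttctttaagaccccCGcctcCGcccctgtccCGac
CLDN4: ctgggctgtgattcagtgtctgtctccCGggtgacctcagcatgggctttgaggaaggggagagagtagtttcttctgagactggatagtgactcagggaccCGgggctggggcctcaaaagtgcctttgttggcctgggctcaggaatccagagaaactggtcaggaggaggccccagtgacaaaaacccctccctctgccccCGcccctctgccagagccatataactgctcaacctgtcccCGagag
The CLDN6 window held 18 CG pairs and 68.0% G and C, and the CLDN4 window 4 pairs and 58.8%. The median over all 35116 windows of the table was 11 pairs and 58.0%. The windows of CLDN3 (19 pairs), CLDN1 (28) and CLDN12 (12) were also above that median. The windows of CLDN11 held 29 and 2 pairs, those of CLDN10 held 9 and 29, and those of CLDN7 held 25 and 9. The second CLDN11 window thus held fewer pairs than that of CLDN4.

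One of the CLDN7 windows (chr17:7262479-7262728, minus strand) is shown for its E-boxes, the sequence CAGGTG searched on both strands, in capitals.
CLDN7: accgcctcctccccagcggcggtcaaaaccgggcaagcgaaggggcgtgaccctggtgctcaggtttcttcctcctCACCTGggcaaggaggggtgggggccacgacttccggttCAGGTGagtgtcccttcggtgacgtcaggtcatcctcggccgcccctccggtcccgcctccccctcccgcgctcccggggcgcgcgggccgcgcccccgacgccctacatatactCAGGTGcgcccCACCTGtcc
It held 4 matches. Of all windows, 17.5% held at least 1 and 0.122% (43 windows) held 4 or more, and none of the other 10 windows held any. The sequence AACCNGTT, a motif of grainyhead-like factors also searched on both strands, was in none of the 11 windows and in 1.49% of all. A match is a description of these letters and does not show that a factor binds there. E-boxes of this kind are known to be bound by the repressors SNAI1, SNAI2, ZEB1 and ZEB2, whose levels are given next.

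The transcription factor list held 17 genes that promote or repress epithelial genes. Of all loci tested, 9.05% rose and 5.37% fell in MESO, 12.0% and 24.8% in NPC, and 10.2% and 19.7% in NCSC. The list medians of the log2 change were 1.77, -1.12 and -1.44 in these types, beside 0.06, -0.25 and -0.21 over all loci. In MESO 10 of 14 tested rose and none fell. These included factors of both kinds: SNAI2 rose from 0.243 FPKM to 80.9, ZEB2 from 0.109 to 15.3 and TWIST1 from 0.192 to 15.6. SNAI1 rose from 5.33 to 25.7 and ZEB1 from 0.0651 to 0.852, and the epithelial factors GRHL2 (6.50 to 17.8) and OVOL1 (2.39 to 19.9) rose as well. In NPC 3 of 13 tested rose, ZEB2 (0.204 to 17.6), ZEB1 (0.0826 to 11.2) and SNAI2 (0.288 to 3.78). SNAI1 was 5.81 in hESC and 5.49 in NPC and did not pass, and 5 genes fell, among them GRHL2 (7.32 to 0.0708) and ELF3 (7.10 to 1.34). With 13 genes tested, these NPC counts are not far from the shares over all loci. In NCSC 4 of 13 rose, ZEB2 (0.175 to 21.6), SNAI2 (0.286 to 11.7), ZEB1 (0.0778 to 6.70) and SNAI1 (5.34 to 10.4), and 6 fell, again with GRHL2 (6.85 to 0.215). In DE none of 14 passed, with SNAI1 at 6.51 in hESC and 14.2 in DE. The part of these factors in the claudin levels was not tested.

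Scaffold and other membrane proteins of the tight junction include genes that rose and genes that fell. Of 31 tight junction scaffold and membrane genes, 12 fell and 4 rose in NPC, with a median log2 change of -0.53. Of all loci tested for NPC, 24.8% fell and 12.0% rose, with a median of -0.25. CGNL1, paracingulin, fell from 25.7 FPKM to 1.43, MARVELD3 from 13.1 to 0.286 and the junctional adhesion molecule F11R from 84.2 to 22.8, while ILDR2 rose from 0.225 to 15.2. In NCSC 15 fell and 3 rose, with a median of -0.86, beside 19.7% and 10.2% of all loci tested and a median of -0.21. MARVELD3 fell from 12.3 to 0.131, the polarity gene CRB3 from 11.9 to 0.112 and CGNL1 from 24.0 to 1.37, and ILDR2 rose from 0.210 to 39.0. In MESO 4 of 30 tested rose, led by the angiomotin gene AMOT (1.90 to 34.995) with MAGI3 (2.22 to 13.98) and AMOTL2 (12.8 to 62.0), and PARD6A (8.10 to 1.01) and LSR (76.1 to 33.9) fell. These MESO counts are near the 9.05% higher and 5.37% lower of all loci tested, and the median was 0.00 beside 0.06. In DE none of 30 passed.

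Of 26 adherens junction and epithelial genes, 20 fell and none rose in NPC, with a median log2 change of -2.10. Over all loci tested for NPC, 24.8% fell and 12.0% rose, with a median of -0.25. EPCAM, which binds CLDN7, fell from 160 FPKM to 1.58, and CDH1, E-cadherin, from 89.6 to 0.0631. In NCSC 18 fell and 1 rose, with a median of -2.62, beside 19.7% and 10.2% of all loci tested and a median of -0.21. CDH1 fell there from 83.6 to 0.823 and AP1M2 from 66.0 to 0.570. The gene that rose there was DSP, desmoplakin (18.9 to 46.1). In MESO 7 rose and 2 fell, with a median of 0.33, beside 9.05% and 5.37% of all loci tested and a median of 0.06. DSP rose there from 19.1 to 138 and DSC2 from 7.85 to 46.9, while MAL2 fell from 61.3 to 5.05 and ESRP1 from 76.3 to 30.5. In DE none of 26 passed. These lists were not tested against the claudins or against other genes.

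**Figure D5:**
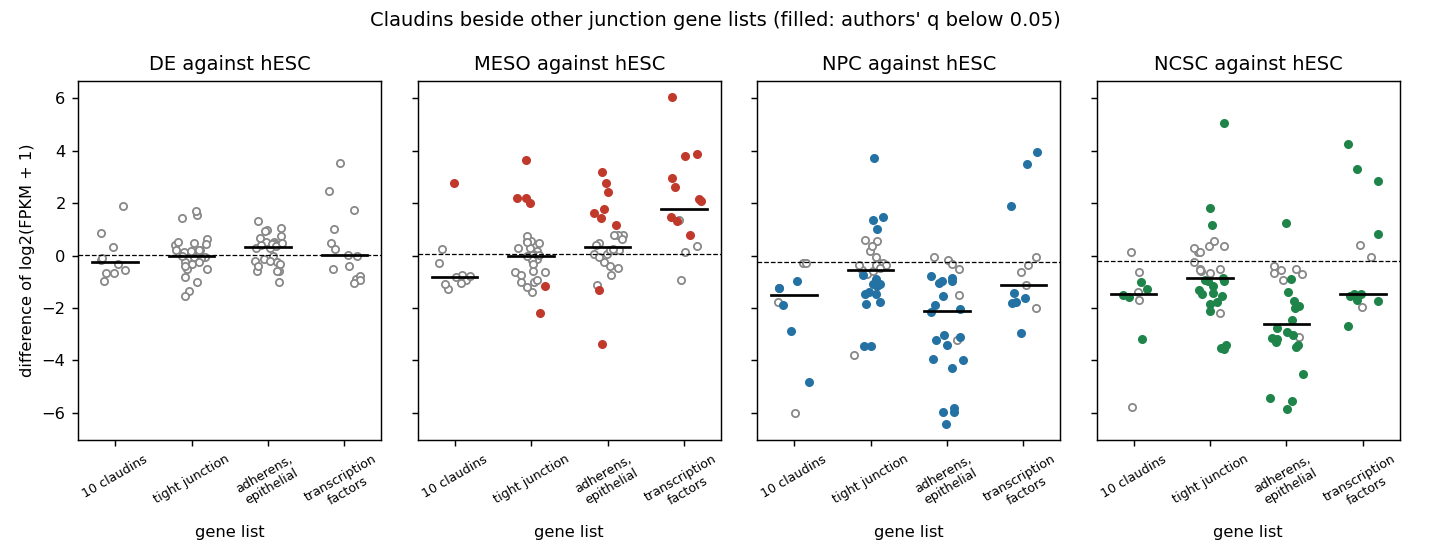
Difference of log2(FPKM + 1) against hESC for the 10 claudins and for the tested genes of 3 other lists, in each table (points, filled where the authors' q was below 0.05). Bars are list medians and the dashed line is the median of all loci tested; in NPC the claudin median is -1.50 and the adherens and epithelial median -2.10.

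Of the 14 other genes with claudin names, 9 to 11 per table were untested or merged with another symbol. CLDN19, known from the kidney and the eye, fell in MESO (7.28 to 2.01 FPKM) and in NPC (7.73 to 0.527) and did not pass in NCSC (6.61 and 4.93) or DE (10.98 and 10.6). CLDN23 fell in NPC (3.51 to 1.24) and NCSC (3.30 to 0.382). CLDN16, a kidney claudin, was 0.123 in hESC and 1.82 in DE without passing and stayed below 0.2 elsewhere. CLDND1, a more distant relative, was 68.6 FPKM in DE, 68.2 in MESO, 40.2 in NPC and 38.1 in NCSC and did not pass in any. CLDN15 was 4.14 and 3.17 in the DE table and was merged with FIS1 in the other 3, and CLDN20 was merged with TIAM2 in NPC and NCSC, so neither is described further. CLDN2, CLDN8, CLDN14, CLDN17, CLDN18, CLDN22, CLDN24 and CLDN25 were below 1 FPKM in every column.

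The list of PMP22 and EMP genes holds distant relatives of the claudins. Of 8 tested in MESO, 5 rose and 1 fell, beside 9.05% higher and 5.37% lower of all loci tested. PMP22, a protein of peripheral myelin, rose from 3.34 FPKM to 254, EMP1 from 0.323 to 9.72 and EMP3 from 12.6 to 40.2. In NPC TMEM47 rose (20.1 to 53.7) and PERP, a desmosome protein, fell (32.6 to 18.6), and in NCSC EMP3 rose (12.998 to 34.9) and PERP fell (30.3 to 11.5).

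Among 10842 single-symbol genes with at least 5 FPKM in a column, those whose 4 log2 changes lay closest to a member were found by Euclidean distance. Nearest to CLDN6 were PYCARD (distance 0.72), RBM46 (0.98) and ESRP2 (1.00). Nearest to CLDN4 were LYN (0.63), SPHK1 (0.69) and KLK6 (0.89), and nearest to CLDN11 were EPHX1 (1.02), DTWD2 (1.03) and ARSE (1.06). The nearest gene lay at 0.12 for CLDN1 (SLC38A7), 0.19 for CLDN3 (HLTF) and 0.17 for CLDN5 (DLG3). These distances are over 4 comparisons that all have hESC as the reference, and they describe likeness in value only.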

How the data were processed

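The labels describe poly-A RNA-seq of 5 cell types with 2 libraries each, and do not say whether the 2 came from separate cultures. Tools listed in the submitters' processing notes are Cufflinks 2.2.1, featureCounts, Subread 1.5.2 and TopHat2 2.0.13, with hg19 as the build, and which tool did what is not stated. In each of 4 tables the authors deposited an FPKM value for hESC and another for the derivative. Per the file headers, the authors also gave a test statistic (a signed score), a p-value and a q-value. Neither filters nor scaling between tables is given in the sources used here, and depth is unknown.

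Rows on chromosomes 1 to 22 and X were kept, gene cells were split at commas, and a symbol with several rows was represented by that of highest mean FPKM. A locus whose statistic was 0 and whose p-value was 1 was taken as untested. A member changed where the authors' q was below 0.05, and no test was made across tables. Other genes named are, per list and table, up to 3 changed in each direction with at least 5 FPKM, plus other claudins of at least 1 FPKM. Further genes of the lists (GRHL2, OVOL1, SNAI1 and ZEB1 in MESO, SNAI2 in NPC, SNAI1 in the other tables, KDR, TEK and other markers) were named after their values were seen. Some genes of the lists are counted but not reported here by name. The members and lists were chosen with earlier results of these data known. The normal p-values were adjusted by the Benjamini-Hochberg method with statsmodels 0.14.6, and this step was tested on simulated data.

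Alternatives were pseudocounts of 0.1 and 5, quantile normalization, hESC of the other tables, centring, a minimum of 1 FPKM, a minimum log2 change of 1, the lowest row per symbol, and normal p-values. Shares with other claudins or without CLDN7 were added after seeing the data. Coding stretches are from GENCODE release 29 and promoters from RefSeq (GRCh38.p14), and the loci are hg19.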

Additional observations from a re-analysis of the deposited data

Results flagged for a closer look

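Several genes rose in a derivative and fell in another, in tables that all have hESC as the reference. The difference between derivatives was not tested for any of them, because each table holds 1 value per cell type. CLDN4 was the only one of the 10 claudins to do so, with a log2 change of 2.78 in MESO and -1.89 in NPC.

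The other genes described here came from the lists of epithelial genes, transcription factors and PMP22 and EMP relatives, and all of them rose in MESO. PERP belongs to the last of these lists (1.32 in MESO, -0.77 in NPC and -1.32 in NCSC). Of the adhesion genes these were PKP2 (1.80 in MESO, -2.05 in NPC and -2.46 in NCSC), JUP (1.63 in MESO, -1.04 in NPC and -0.89 in NCSC) and DSC2 (2.44 in MESO, -0.95 in NPC and -1.38 in NCSC). RAB25, a trafficking gene of epithelia, had 1.42 in MESO and -1.98 in NCSC. Of the epithelial transcription factors these were GRHL2 (1.32 in MESO, -2.96 in NPC and -2.69 in NCSC), OVOL1 (2.63 in MESO, -1.78 in NPC and -1.68 in NCSC), KLF4 (2.16 in MESO, -1.44 in NPC and -1.44 in NCSC) and KLF5 (1.47 in MESO, -1.61 in NPC and -1.73 in NCSC). GRHL1 had 2.98 in MESO and -1.47 in NCSC.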

How the results depend on the processing

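The number of claudins called stayed at 0 in DE and 1 in MESO under all 4 alternatives for calls. The minimum of 1 FPKM and the lowest row per symbol could not alter any count. All 10 members reached 1 FPKM in each table and had 1 row per table. The minimum log2 change can only remove calls, so in DE only the normal p-values could have added any. In NPC it was 5, and 4 with a minimum log2 change of 1 (without CLDN3) or with normal p-values. In NCSC it was 5, and 4 with that minimum change (without CLDN5). None of the 11 called changes altered its sign under either pseudocount, quantile normalization, centring or hESC from the other tables. Of the 29 changes not called, 1 changed sign, CLDN12 in NPC under quantile normalization. The pseudocount moved CLDN7 most, from -9.30 at 0.1 to -3.76 at 5 in NPC and from -8.26 to -3.64 in NCSC. CLDN9 moved from -3.58 to -0.62 in NPC, and CLDN5 from -2.22 to -0.27 in MESO. Called changes of low genes moved too: CLDN11 from -4.48 to -1.34 in NPC, and CLDN1 from -2.40 to -0.41 in NPC and from -2.68 to -0.41 in NCSC. The share of CLDN6 in NPC was 31.8% of the sum, and 30.6% with the other claudins added. Runs without a replicate could not be made, since the tables hold 1 value per cell type. No paired analysis was possible because the columns carry no replicate.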
